A study of Mus musculus with 8 samples.

Results

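The E2F transcription factors and the retinoblastoma (pocket) proteins were followed in neonatal mouse hearts as 10 genes, taken by symbol from a table of 54532 genes. These were the activating E2f1, E2f2 and E2f3, the repressing E2f4 and E2f6, the atypical E2f7 and E2f8, and the pocket protein genes Rb1, Rbl1 and Rbl2. The cHET group held 4 libraries from whole hearts of Mrps5 fl/+; Myh6-Cre mice at postnatal day 4. The control group held 4 libraries from hearts of Mrps5 fl/+ littermates of the same age, which carried the floxed allele without Cre. In cHET hearts Cre stood under the Myh6 promoter, which acts in cardiomyocytes, so that these cells lose 1 allele of Mrps5, a protein of the small mitochondrial ribosomal subunit, late in embryonic life, per the labels. Other heart cells keep both alleles, and no group had Cre without the floxed allele, so what Cre itself does and what the lost allele does cannot be told apart. The labels call the 4 samples of each group biological replicates, and libraries are named here by group and replicate number.

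E2F proteins bind the promoters of genes for DNA replication and cell division. In resting cells the pocket proteins hold them in a repressive state, Rb1 mainly with the activating E2Fs and the p107 and p130 proteins (genes Rbl1 and Rbl2) mainly with E2f4. Cyclin-dependent kinases phosphorylate the pocket proteins in G1, the activating E2Fs are freed, and their targets are transcribed. E2f6, E2f7 and E2f8 repress without a pocket protein, and E2f7 and E2f8, themselves E2F targets, limit the wave of transcription in late S phase. Mouse cardiomyocytes leave the cell cycle in the first days after birth, the time at which these hearts were taken.

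Many E2F and pocket protein promoters carry E2F sites of their own, and genes of the later cell cycle carry a second element, the CHR, which is bound by the MuvB complex. The promoter windows of 4 genes are shown as examples. They hold these letters and belong to genes that varied together across the libraries, which is also true of E2f2, not shown here. E2f1 and E2f6 varied with these genes too, but their windows hold neither set of letters. Each window shown runs 5′ to 3′ on the strand of the gene. It spans 250 bases before the annotated start to 50 bases after it (RefSeq, GRCm38.p6). Capitals mark matches, on either strand, to the E2F letters TTGGCGC or TTCCCGC or TTCGCGC or TTGCCGC, and to the CHR letters TTTGAA.
E2f8, chr7:48881547-48881846, minus strand: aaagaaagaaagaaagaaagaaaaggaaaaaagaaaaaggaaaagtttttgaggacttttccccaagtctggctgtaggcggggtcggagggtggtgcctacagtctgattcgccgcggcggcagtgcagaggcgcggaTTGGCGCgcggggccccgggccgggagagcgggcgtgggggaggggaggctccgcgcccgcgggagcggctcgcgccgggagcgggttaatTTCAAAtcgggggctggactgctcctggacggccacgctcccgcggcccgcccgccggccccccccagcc
E2f7, chr10:110745189-110745488, plus strand: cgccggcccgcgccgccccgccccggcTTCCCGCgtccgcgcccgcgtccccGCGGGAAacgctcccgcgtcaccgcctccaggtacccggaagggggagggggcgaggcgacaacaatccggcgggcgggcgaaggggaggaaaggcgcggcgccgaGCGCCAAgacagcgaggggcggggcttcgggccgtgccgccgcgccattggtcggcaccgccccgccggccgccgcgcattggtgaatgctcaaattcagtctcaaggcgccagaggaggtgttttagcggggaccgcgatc
E2f3, chr13:29986014-29986313, minus strand: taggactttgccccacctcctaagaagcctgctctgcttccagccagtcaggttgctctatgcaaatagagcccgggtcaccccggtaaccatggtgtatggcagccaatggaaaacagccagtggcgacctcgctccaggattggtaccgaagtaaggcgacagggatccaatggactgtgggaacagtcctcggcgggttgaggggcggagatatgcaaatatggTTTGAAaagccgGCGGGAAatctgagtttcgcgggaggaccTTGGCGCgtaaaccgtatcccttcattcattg
Rbl1, chr2:157204485-157204784, minus strand: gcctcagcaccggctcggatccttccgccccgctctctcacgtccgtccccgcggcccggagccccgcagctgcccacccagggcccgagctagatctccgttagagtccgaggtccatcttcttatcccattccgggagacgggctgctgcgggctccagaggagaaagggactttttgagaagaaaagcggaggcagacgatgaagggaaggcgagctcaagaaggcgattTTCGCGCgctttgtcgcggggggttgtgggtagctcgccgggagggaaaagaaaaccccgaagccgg

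Windows were given for 8 of the 10 genes, 10 windows in all since E2f2 and E2f3 have 2 annotated starts each. E2F letters stood in the windows of 5 of the 8 genes and CHR letters in those of 4, and 3 genes held both. By window, 5 of 10 held E2F letters, against 9.57% of all 32851 mouse promoter windows of this length, and 4 of 10 held CHR letters, against 17.9%. E2f8 held an E2F match at positions -111 to -105 from the start and a CHR match, on the opposite strand, at positions -20 to -15. E2f7 held 3 E2F matches and no CHR letters. The first window of E2f3 held an E2F match close to the start on each side of it and a CHR match just upstream. E2f2 held an E2F match downstream of its first start and a CHR match before its second start, and Rbl1 held 1 E2F match. Rbl2 held a CHR match alone, and the windows of E2f1 and E2f6 held neither set of letters. The E2f1 window, chr2:154569377-154569676 on the minus strand, lay wholly inside the gene, whose 5′ end in the expression table is at 154569892. Bases around that end were not searched, so the empty window does not describe them. The first E2f2 window ended at chr4:136172323, before the 5′ end of that gene in the expression table, at 136172394. Its E2F match thus lay downstream of the RefSeq start but upstream of the gene as counted. No matches overlapped each other. The member windows had a median GC content of 65.3%, against 52.7% for all windows, and the E2F letters are themselves rich in C and G. A match is a run of letters and not a measured binding site.

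**Figure D1:**
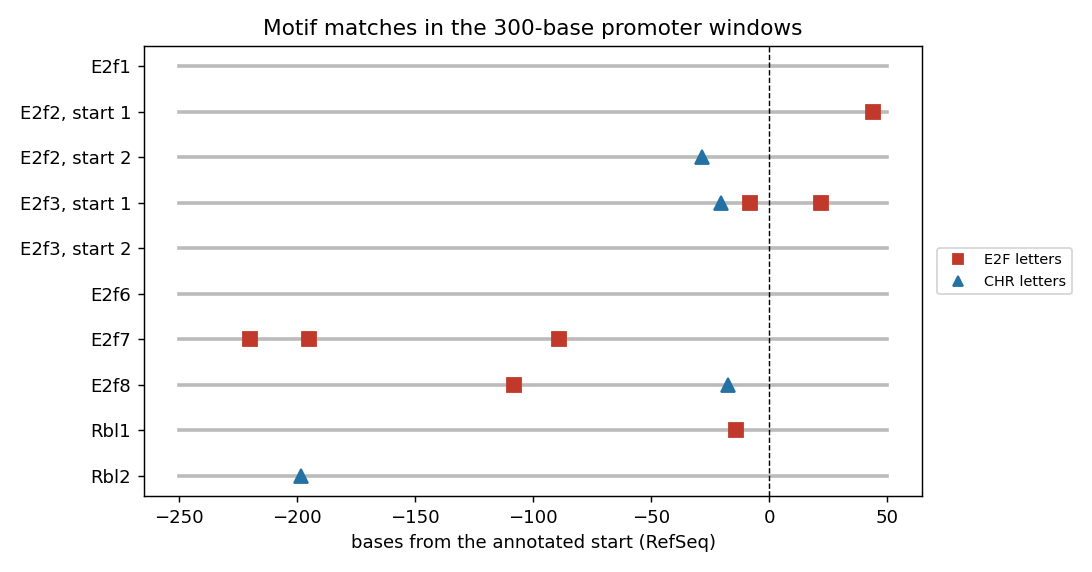
Positions of letter matches in the promoter windows, with bases from the annotated start on the x axis and 1 row per window; squares are E2F letters and triangles CHR letters. E2f7 has 3 squares, E2f8 has 1 square and 1 triangle, and the rows of E2f1 and E2f6 are empty. The E2f1 window lies inside the gene and does not cover its 5′ end.

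All 10 genes were detected in every library, with 123 to 1394 reads per gene and library, and each had a mean of at least 1 FPKM (read fragments scaled by gene length and library size), the filter for the tests. On the FPKM scale, which is per gene length, the order of mean levels over the 8 libraries was E2f4 (17.2), E2f1 (12.9), E2f6 (11.7), Rbl1 (5.52), E2f3 (5.15), E2f8 (4.46), Rb1 (3.59), Rbl2 (3.18), E2f2 (2.66) and E2f7 (1.98). Some neighbours in this order were not separated. E2f1 lay above E2f6 in 5 of 8 libraries, E2f8 above Rb1 in 5, and E2f3 above E2f8 and Rbl2 above E2f2 in 6 each. The repressor E2f4 lay above E2f1 in 7 of 8 libraries, the exception being cHET 3.

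Libraries differed in ways the groups do not give. Depth was 15490622 to 19234777 reads per library, rebuilt from the FPKM values. By their Xist and Ddx3y levels cHET 1, control 1 and control 3 came from males and the other 5 from females. Brown fat markers summed to 59.9 and 55.5 FPKM in control 1 and control 2, against 24.6 to 42.3 FPKM in the other 6. The FPKM values of all genes also set these libraries apart. They summed to 450265 in control 1 and 467217 in control 2, against 353291 to 392047 in the other 6. The cause was not tested, and results without both libraries and under TPM scaling are given below. Control 1 was the lowest of all 8 libraries for 8 of the 10 genes, and cHET 1 was the lowest of its group for 9 of 10, while cHET 3 was the highest of all for 7. All 8 cardiomyocyte markers exceeded 1 FPKM on average and summed to 17095 to 20857 FPKM in cHET and 18006 to 20964 FPKM in control libraries. The targeted gene Mrps5 averaged 7.16 ± 0.365 FPKM in cHET and 8.27 ± 3.05 FPKM in control hearts (SD, n = 4; exact two-sided permutation test, p = 0.486). The 2 control libraries labelled 2 and 4, both female, lay below every cHET library, and the male control 1 and control 3 lay above every one. In female libraries alone Mrps5 was higher in cHET, by 0.30 on the log2 scale (limma, unadjusted p = 0.0476, adjusted p = 0.94). The lower cHET mean thus came from the male controls. Reads from cells that keep both alleles are included, so Mrps5 is only a partial check of the labels.

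The comparison asked which of these regulators differed in hearts with a single cardiomyocyte allele of Mrps5. None of the 10 genes passed the test in either direction (limma, adjusted p = 0.337 to 0.989), where 0.023% of the 13029 genes tested passed as higher and 0% as lower. Their log2 fold changes, cHET over control, ran from -0.05 to 0.57 with a median of 0.25, against a median of 0.0086 over all genes tested. Of the 10 genes 8 had a value above 0, against 52.1% of all genes. At an unadjusted p under 0.05, 3 of the 10 genes were higher, against 5.03% of all genes, and 0 were lower, against 3.92%. The 3 were E2f8, E2f1 and E2f7. For 1 of the 10, E2f8, the groups did not overlap and cHET was higher, against 2.74% of all genes, and for 0 of 10 cHET was lower without overlap, against 2% of all genes. The 10 genes were measured in the same libraries, so these counts are not independent of each other. Without control 1 and control 2 together the median of the 10 genes was 0.073.

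**Figure D2:**
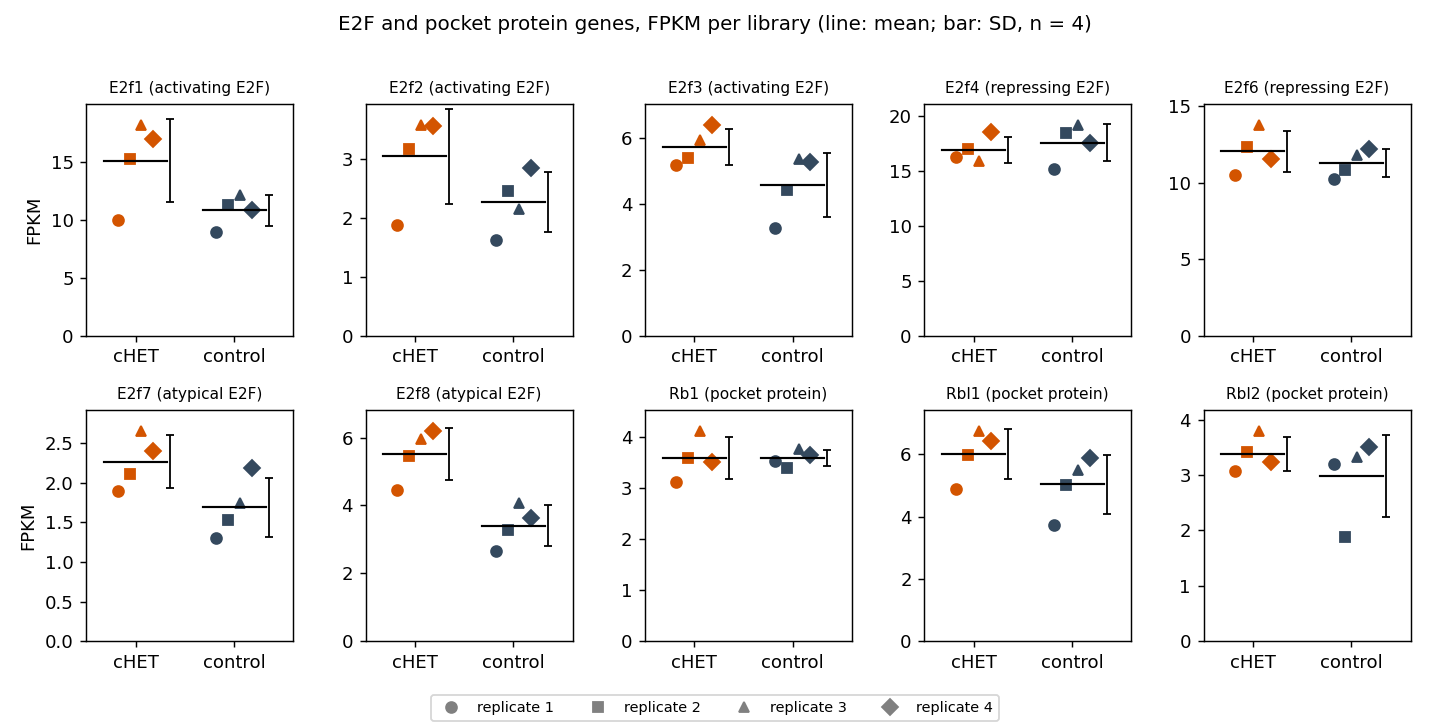
FPKM of each gene in each library, cHET left of control; marker shapes give the replicate number, lines the mean and bars the SD (n = 4 each). The groups are apart for E2f8 alone, and in the E2f1 and E2f2 panels cHET 1 lies among the control libraries.

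The atypical E2F genes had the largest ratio of class sums, 1.53, against 1.35 for the activating, 1.12 for the pocket protein and 1.00 for the repressing genes (mean of cHET over mean of control, summed FPKM). By gene this ratio was 1.62 for E2f8 but 1.34 for E2f7, against 1.40 for E2f1, 1.34 for E2f2 and 1.25 for E2f3. E2f8 (ENSMUSG00000046179, chr7:48866429-48881596, minus strand) stood at 4.45, 5.46, 5.95 and 6.20 FPKM in cHET 1 to 4, against 2.65, 3.26, 4.09 and 3.62 FPKM in control 1 to 4. The groups did not overlap, with cHET 1 nearest to the highest control library, control 3. The ratio of the means was 1.62 and the log2 fold change 0.57 (SE 0.126, 95% interval 0.28 to 0.85; limma, unadjusted p = 0.00141, adjusted p = 0.337). The unadjusted p of E2f8 stayed under 0.05 in each of 18 other settings, and its log2 fold change there was 0.42 to 0.73. E2f7 (ENSMUSG00000020185, chr10:110745439-110787384, plus strand), the partner with which E2f8 can pair on DNA, stood at 1.90, 2.11, 2.65 and 2.40 FPKM in cHET 1 to 4 and at 1.31, 1.53, 1.74 and 2.18 FPKM in control 1 to 4. Only control 4 reached into the cHET range of E2f7. Its log2 fold change was 0.28 (SE 0.123, interval 0.0063 to 0.56; limma, adjusted p = 0.55), and it was 0.14 without control 1 and control 2. E2f8 was the more abundant of the pair in all libraries, at 2.24 to 2.59 times the level of E2f7 in cHET and 1.66 to 2.34 times in control hearts.

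Among the activating E2Fs, 3 cHET libraries were high and cHET 1 was not. E2f1 (ENSMUSG00000027490, chr2:154559407-154569892, minus strand), the E2F most often tied to entry into S phase and to apoptosis, stood at 9.98, 15.3, 18.1 and 17.0 FPKM in cHET 1 to 4. Control 1 to 4 had 8.92, 11.3, 12.1 and 10.9 FPKM of E2f1. The groups overlapped through cHET 1, which was below 3 of the 4 control libraries, while the other cHET libraries were above every control library. Its log2 fold change was 0.42 (SE 0.172, interval 0.035 to 0.81; limma, unadjusted p = 0.0357, adjusted p = 0.535). Without cHET 1 it was 0.60, and without control 1 it was 0.34 (limma, adjusted p = 0.357 and 0.909).

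E2f2 (ENSMUSG00000018983, chr4:136172394-136196057, plus strand) had a similar pattern at a lower level, with cHET 1 and control 1 the lowest of their groups. It stood at 1.87, 3.18, 3.57 and 3.56 FPKM in cHET 1 to 4, against 1.62, 2.46, 2.14 and 2.84 FPKM in control 1 to 4. All cHET libraries but cHET 1 exceeded every control library. The log2 fold change of E2f2 was 0.30 (SE 0.173, interval -0.093 to 0.69; limma, adjusted p = 0.641), with 0.45 without cHET 1 and 0.20 without control 1.

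E2f3 (ENSMUSG00000016477, chr13:29906575-29986063, minus strand) encodes 2 forms from separate promoters, which the table does not tell apart. Its values were 5.17, 5.40, 5.94 and 6.40 FPKM in cHET 1 to 4, and 3.26, 4.41, 5.38 and 5.27 FPKM in control 1 to 4. The cHET libraries were closer to each other than the control libraries, of which control 1 was lowest, and cHET 1 lay within the control range. The log2 fold change of E2f3 was 0.28 (SE 0.134, interval -0.019 to 0.59; limma, adjusted p = 0.581), with 0.16 without control 1 and 0.085 without control 1 and control 2.

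The repressing E2Fs had overlapping groups and values near 0. E2f4 (ENSMUSG00000014859, chr8:105297663-105305370, plus strand), the main E2F of resting cells, stood at 16.2, 16.9, 15.9 and 18.6 FPKM in cHET 1 to 4, against 15.2, 18.4, 19.1 and 17.5 FPKM in control 1 to 4. Its groups overlapped throughout, with a log2 fold change of -0.05 (SE 0.0925, interval -0.26 to 0.16; limma, adjusted p = 0.868) that was 0.046 under TPM scaling and -0.11 to -0.0086 with 1 library left out. E2f6 (ENSMUSG00000057469, chr12:16810963-16839742, plus strand), which acts with a Polycomb complex, had 10.5, 12.3, 13.8 and 11.5 FPKM in cHET 1 to 4 and 10.3, 10.9, 11.8 and 12.2 FPKM in control 1 to 4. Its log2 fold change was 0.082 (SE 0.0969, interval -0.14 to 0.30; limma, adjusted p = 0.785), with 0.021 without cHET 3, 0.14 without cHET 1, 0.041 without control 1 and -0.0044 without control 1 and control 2. These intervals leave room for differences of up to 0.30 in size, so equality of the groups is not shown.

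**Figure D3:**
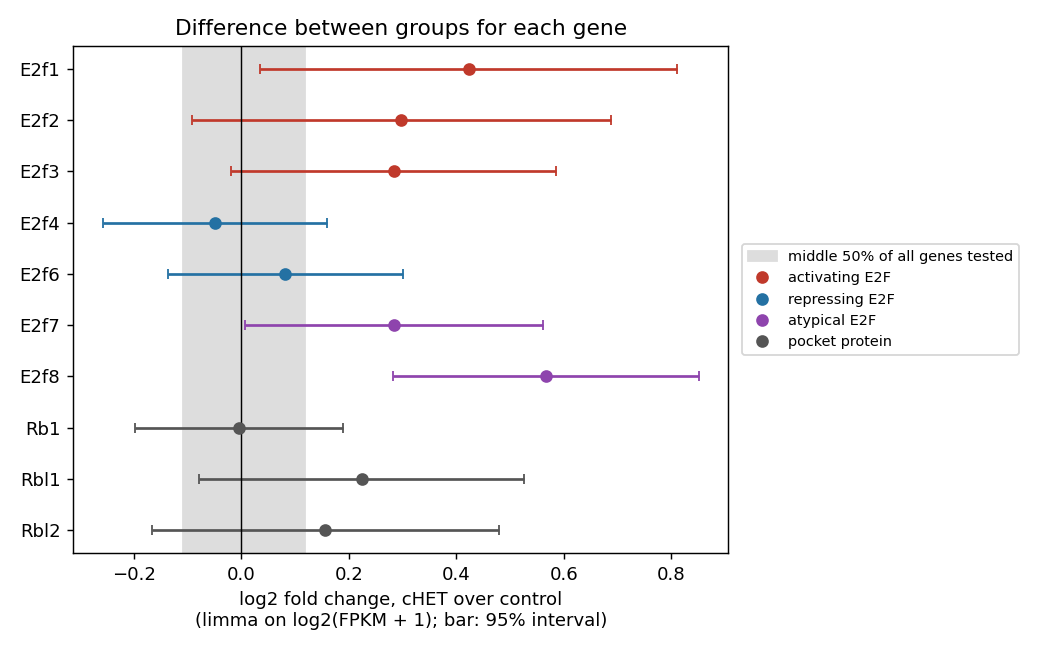
Log2 fold change of each gene, cHET over control, with its 95% interval from limma; colours give the class and the grey band the middle 50% of all genes tested. The intervals of E2f8, E2f1 and E2f7 lie above 0, and the points of E2f4, E2f6 and Rb1 lie inside the grey band.

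The pocket protein genes differed among themselves. Rb1 (ENSMUSG00000022105, chr14:73183673-73325822, minus strand) had nearly equal group means of 3.59 FPKM each, from values of 3.13, 3.59, 4.13 and 3.51 FPKM in cHET 1 to 4 against 3.54, 3.41, 3.77 and 3.65 FPKM in control 1 to 4. Rb1 differed between groups by -0.0041 (log2; SE 0.086, interval -0.20 to 0.19; limma, adjusted p = 0.989), and the sign changed under 7 of 18 other settings, where it ranged from -0.059 to 0.083. Rbl1 (ENSMUSG00000027641, chr2:157145893-157204534, minus strand), which encodes p107 and is itself an E2F target, had 4.89, 5.98, 6.75 and 6.42 FPKM in cHET 1 to 4, against 3.73, 5.03, 5.49 and 5.88 FPKM in control 1 to 4. For Rbl1 again cHET 2 to 4 exceeded all control libraries and cHET 1 did not. Its log2 fold change was 0.22 (SE 0.134, interval -0.078 to 0.53; limma, adjusted p = 0.643), with 0.11 without control 1 and 0.062 without control 1 and control 2. Rbl2 (ENSMUSG00000031666, chr8:91070057-91123844, plus strand), which encodes the p130 protein of resting cells, had 3.06, 3.41, 3.80 and 3.24 FPKM in cHET 1 to 4 and 3.20, 1.88, 3.32 and 3.51 FPKM in control 1 to 4. Only control 2 stood apart for Rbl2. On the log2 scale Rbl2 was 0.16 higher in cHET (SE 0.143, interval -0.17 to 0.48; limma, adjusted p = 0.732), and this difference was 0.0086 without control 2 and -0.015 without control 1 and control 2. Rb1 overlaps Rcbtb2 (4.45 FPKM on average) and Lpar6 (2.34 FPKM), and Rbl2 overlaps Aktip (4.26 FPKM), each on the opposite strand. Whether reads were counted by strand is not given in the sources used here, so part of these values may belong to the neighbours.

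Taken by class, the activating genes summed to 17.0, 23.8, 27.7 and 26.9 FPKM in cHET 1 to 4, against 13.8, 18.2, 19.6 and 19.0 FPKM in control 1 to 4. The repressing genes summed to 26.7, 29.3, 29.6 and 30.1 FPKM in cHET and to 25.4, 29.2, 31.0 and 29.7 FPKM in control 1 to 4. Activating genes thus made up 44.8 ± 4.19% of the activating and repressing sum in cHET and 37.8 ± 1.79% in control hearts (SD, n = 4), with cHET 1 at 38.9% inside the control range of 35.2 to 39.0%. The atypical pair summed to 6.35, 7.57, 8.60 and 8.60 FPKM in cHET 1 to 4, against 3.96, 4.80, 5.83 and 5.81 FPKM in control 1 to 4. These groups did not overlap, as was already so for E2f8, the larger part of this sum, while the groups of E2f7 overlapped. On the mean log2(FPKM + 1) scale the atypical genes minus the repressing genes gave -1.73 ± 0.0894 in cHET and -2.14 ± 0.0898 in control hearts (SD, n = 4), a difference of 0.41 between groups that did not overlap. Activating minus repressing genes gave -1.02 ± 0.183 in cHET and -1.34 ± 0.104 in control hearts, with overlap through cHET 1. Atypical minus activating genes gave -0.71 ± 0.108 in cHET and -0.80 ± 0.0733 in control hearts, and these ranges overlapped. No test was made on these class values, since the genes were chosen with results known. The ratio of E2f1 to E2f4 was 0.616, 0.900, 1.14 and 0.914 in cHET 1 to 4 and 0.588 to 0.633 in the control libraries.

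Across the 8 libraries the activating and atypical genes varied together. As a description, Pearson correlations of log2(FPKM + 1) were 0.78 to 0.91 among the 3 activating genes, 0.79 to 0.90 between activating and atypical genes and 0.88 between E2f7 and E2f8. Rbl1 correlated at 0.93 with E2f7 and at 0.94 with E2f3. The repressing E2f6 varied with them too, at 0.65 (E2f8) to 0.81 (E2f7) with the activating and atypical genes and 0.85 with Rbl1. This pattern was therefore not particular to the activating and atypical classes. E2f4 stood apart, with values from -0.33 to 0.46 against the other 9 genes. The points are whole libraries in 2 groups and include the group difference, depth and cell makeup that all genes share. Among 11319 other protein-coding genes, those most like E2f8 were Depdc1b (r = 0.99) and Arl2bp (0.98), and those most like E2f7 were Mdc1 (0.99) and N4bp3 (0.99). E2f1 was most like Ahcy (0.99) and Actc1 (0.98), E2f2 most like Agfg2 (0.98) and Slc27a4 (0.98), and E2f3 most like Carhsp1 (0.99) and Leo1 (0.98). For E2f4 these were Selenon (0.98) and Smad7 (0.94), and for E2f6 Ppm1l (0.97) and Slc25a30 (0.96). Rb1 was most like Zfp395 (0.98) and Akt1 (0.96), and Rbl1 most like Pik3cb (0.99) and Ssrp1 (0.98). Rbl2 was most like Cnot3 (0.97) and Prox1 (0.97), but these fell to 0.42 and 0.40 without the 2 libraries farthest from the median of Rbl2. Each was picked as the highest of all these correlations over 8 points.

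**Figure D4:**
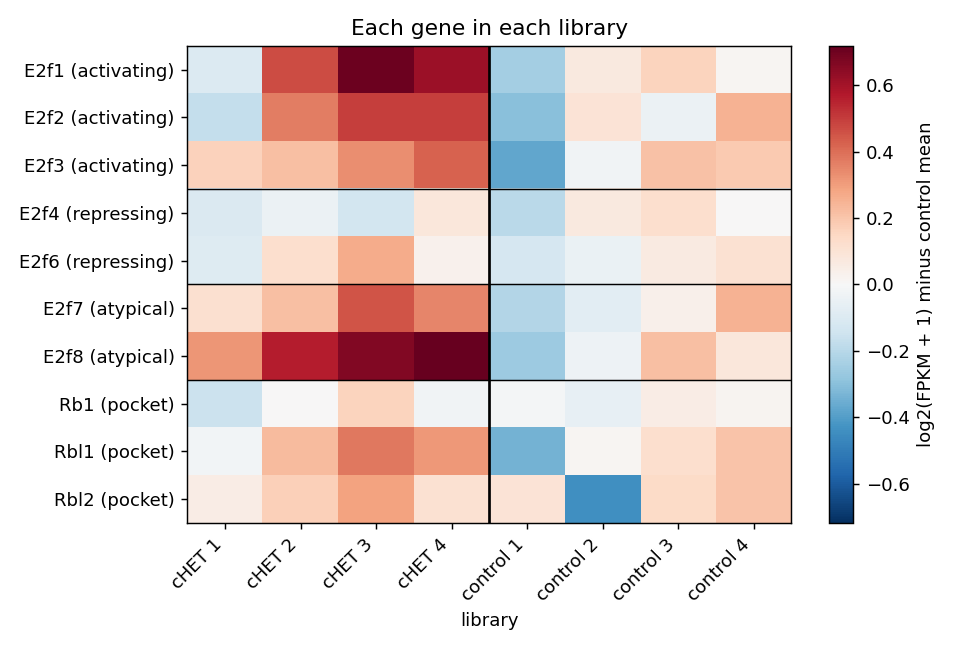
Log2(FPKM + 1) of each gene in each library minus the mean of the control libraries, cHET libraries left of the vertical line; red is above and blue below the control mean. The rows of E2f1, E2f2, E2f3, E2f7, E2f8 and Rbl1 are red in cHET 2 to 4 and blue in control 1, and cHET 1 is red in the E2f8 row while blue in the E2f1 and E2f2 rows.

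Sex and group were not balanced, with 1 male of 4 in cHET and 2 males of 4 in control. Among female libraries E2f1 stood at 15.3 to 18.1 FPKM in the 3 cHET hearts and at 10.9 to 11.3 FPKM in the 2 control hearts. The single male cHET library had 9.98 FPKM of E2f1, between the male controls at 8.92 and 12.1 FPKM. E2f8 was higher in cHET within each sex, at 5.46 to 6.20 FPKM in female cHET and 3.26 to 3.62 FPKM in female control hearts, and at 4.45 FPKM in the male cHET and 2.65 and 4.09 FPKM in the male control hearts. With sex as a covariate the log2 fold change was 0.52 for E2f8 and 0.34 for E2f1 (limma, adjusted p = 0.524 and 0.695). In female libraries alone it was 0.63 for E2f8 and 0.55 for E2f1 (limma, adjusted p = 0.94 each).

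The genes of the DP proteins, with which most E2Fs pair to bind DNA, did not pass the test. Tfdp1, the main dimerization partner, averaged 23.9 ± 1.55 FPKM in cHET and 22.1 ± 2.12 FPKM in control hearts (log2 fold change 0.11, or 0.044 without control 1 and 0.064 without cHET 4; limma, adjusted p = 0.721). Tfdp2 averaged 2.96 ± 0.399 FPKM in cHET and 3.01 ± 0.216 FPKM in control hearts (SD, n = 4; log2 fold change -0.022, and 0.061 under TPM scaling; limma, adjusted p = 0.945). Of the list of MuvB subunits with Mybl2 and Foxm1, 0 of 8 passed in either direction. Of these 8, 7 were above 0, against 52.1% of all genes, with a median of 0.15. Lin9, a MuvB subunit, stood at 2.67 ± 0.136 FPKM in cHET and 1.89 ± 0.175 FPKM in control hearts (log2 fold change 0.35; limma, adjusted p = 0.337). Foxm1, a transcription factor of mitotic genes, stood at 12.9 ± 2.58 FPKM in cHET and 8.76 ± 1.38 FPKM in control hearts (0.50; limma, adjusted p = 0.406). For Lin9 and Foxm1, 2 of the 8, the groups did not overlap and cHET was higher, against 2.74% of all genes. These 2 were named for the smallest p of the list.

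Upstream of the pocket proteins, 0 of 10 kinases, cyclins and activating phosphatases passed. Of these 10, 7 were above 0, against 52.1% of all genes, and the median was 0.14, or 0.084 without control 2. Ccna2, the cyclin of S and G2 phase, had 29.6 ± 6.27 FPKM in cHET and 19.9 ± 4.43 FPKM in control hearts (log2 fold change 0.56; limma, adjusted p = 0.465), and Cdc25a, a phosphatase that activates the kinases, had 4.10 ± 0.457 and 3.36 ± 0.443 FPKM in cHET and control hearts (0.23; limma, adjusted p = 0.564). Of 5 tested inhibitors of these kinases 0 passed, 4 were above 0 and 1 below, and the median was 0.39, or 0.26 without cHET 4 and 0.22 without control 1 and control 2. Cdkn2d stood at 46.5 ± 6.32 FPKM in cHET and 31.2 ± 6.27 FPKM in control hearts without overlap (0.57; limma, adjusted p = 0.351), and Cdkn2c at 26.7 ± 2.41 and 20.3 ± 3.66 FPKM in cHET and control hearts (0.39; limma, adjusted p = 0.455). Both encode inhibitors of the cyclin D kinases. Groups were apart, with cHET higher, for Ccna2 alone of the 10 and Cdkn2d alone of the 5, against 2.74% of all genes. The inhibitor below 0 was Cdkn1c, named after its values were seen, with 15.7 to 19.5 FPKM in cHET and 19.4 to 34.2 FPKM in control hearts (log2 fold change -0.38; limma, unadjusted p = 0.0411, adjusted p = 0.547). The genes Cdkn2a and Cdkn2b were under the filter on low values.

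Corepressors that bind Rb had a median of 0.063 with 9 of 10 above 0 and 0 passing. This median was 0.014 without control 2, 0.096 without control 3 and 0.11 without control 4. Suv39h1, a histone H3 methyltransferase, had a log2 fold change of 0.22 and Smarca4, a chromatin remodelling ATPase, 0.28 (limma, adjusted p = 0.572 and 0.60). The Polycomb partners of E2f6 had a median of 0.098 with 7 of 9 above 0 and 0 passing, among them Cbx3 at 0.39 and L3mbtl2 at 0.23 (limma, adjusted p = 0.574 and 0.583). The Polycomb median was 0.031 without cHET 1. Without control 1 Cbx3 was 0.25 and Smarca4 0.18, and without control 1 and control 2 they were 0.049 and 0.068.

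Known target genes of the family had mostly positive log2 fold changes, though none of them passed the test (limma, adjusted p = 0.301 to 0.983). The G1/S list of E2F targets had 36 of 38 tested genes above 0 and a median log2 fold change of 0.22, or 0.34 without cHET 1, and 8 were higher at an unadjusted p under 0.05. Over all genes tested these shares were 52.1% above 0 and 5.03% at that p. For 2 of the 38, Hells among them, cHET was higher without overlap, against 2.74% of all genes. Uhrf1, which maintains DNA methylation in S phase, stood at 23.5 ± 5.41 FPKM in cHET and 14.6 ± 3.04 FPKM in control hearts (0.64; limma, adjusted p = 0.404). Hells, a chromatin remodeller, stood at 4.77 ± 0.547 FPKM in cHET and 3.52 ± 0.544 FPKM in control hearts (0.35; limma, adjusted p = 0.43). The mean of the G1/S list relative to the control mean was -0.10, 0.27, 0.40 and 0.34 in cHET 1 to 4 and -0.19, 0.11, 0.0043 and 0.072 in control 1 to 4 on the log2 scale. As for E2f1 and E2f2, cHET 1 alone among the cHET libraries lay in the control range.

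The G2/M list, targets of the complex of pocket proteins, E2f4 and MuvB named DREAM, had 28 of 28 genes above 0, a median of 0.56, 27 genes at an unadjusted p under 0.05 and 19 genes without overlap between groups. Over all genes tested 52.1% were above 0, 5.03% were higher at that p and 2.74% were higher without overlap. Without control 1 and control 2 the medians were 0.45 for the G2/M list and 0.17 for the G1/S list. Cenpf, a kinetochore gene, stood at 5.97 ± 0.960 FPKM in cHET and 3.31 ± 0.687 FPKM in control hearts (0.70; limma, adjusted p = 0.301), and Hmmr, a spindle gene, at 14.0 ± 2.51 FPKM in cHET and 8.49 ± 1.16 FPKM in control hearts (0.66; limma, adjusted p = 0.309). The mean of the list was 0.42, 0.33, 0.60 and 0.84 in cHET 1 to 4 and -0.31, 0.16, 0.11 and 0.043 in control 1 to 4. Here cHET 1 lay above every control library, as it did for E2f8. The share of dividing cells was not measured, and these lists were chosen with earlier results of these data known, so their counts support no direction on their own. By letters, 23 of 36 windows of the G1/S list held an E2F match and 5 a CHR match, and 4 of 25 windows of the G2/M list held an E2F match and 19 a CHR match. E2F and CHR shares were thus 63.9% and 13.9% for G1/S and 16% and 76% for G2/M, against 9.57% and 17.9% of all windows.

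**Figure D5:**
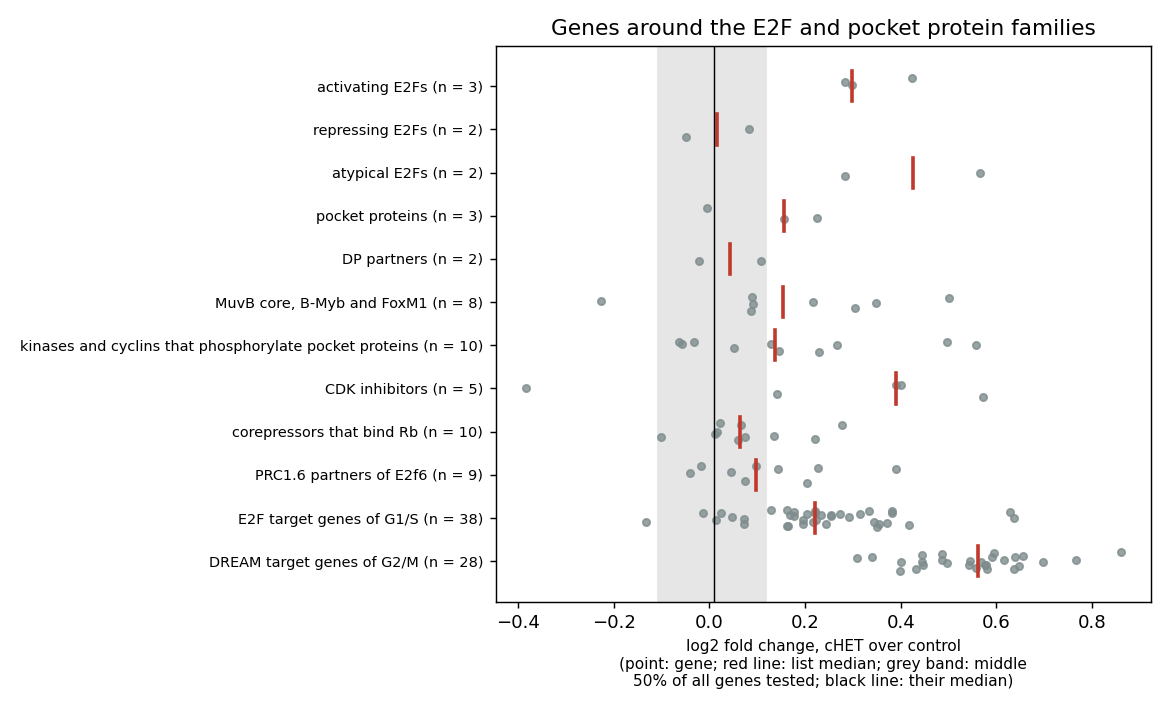
Log2 fold change of each gene, cHET over control, by list; points are genes, red lines list medians, the grey band the middle 50% of all genes tested and the black line their median. The G2/M list lies wholly to the right of the band, the G1/S list mostly so, and the repressing E2Fs inside it.

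Markers of other cell types moved with the groups in part. Epicardial and mesothelial markers summed to 16.2 to 36.0 FPKM in cHET and 38.3 to 85.2 FPKM in control libraries, with 5 of 5 below 0 in log2 fold change, and Msln and Upk3b were the most abundant. Macrophage and leukocyte markers, led by Lyz2 and C1qa, summed to 58.5 to 92.5 FPKM in cHET and 77.3 to 162 FPKM in control libraries, with 6 of 6 tested below 0. Fibroblast markers (Col3a1, Col1a1) summed to 353 to 567 FPKM in cHET and 374 to 577 FPKM in control libraries, with 6 of 6 below 0. Endothelial markers (Cdh5, Egfl7) summed to 181 to 194 FPKM in cHET and 171 to 220 FPKM in control libraries, with 4 of 6 below 0. At an unadjusted p under 0.05 (limma), 3 of 6 endothelial and 3 of 6 macrophage and leukocyte markers were lower. So were 3 of 5 epicardial and mesothelial markers and 0 in each other marker list, against 3.92% of all genes. Of the cardiomyocyte markers 6 of 8 were below 0. Erythroid markers (Hbb-bs, Hba-a1) ran from 1597 to 2541 FPKM in cHET and from 1024 to 8414 FPKM in control libraries. Brown fat markers (Cidea, Ucp1) ran from 29.0 to 42.3 FPKM in cHET and from 24.6 to 59.9 FPKM in control libraries, and the markers Ucp1, Adipoq and Elovl3 were at 0 in at least 1 library. No marker of these 7 lists was at 0 in every library. Their part in the E2F values was not tested, and in whole hearts fewer cells of a type and less RNA per cell cannot be told apart.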

How the data were processed

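RNA from 8 whole hearts was purified on poly-T beads, per the labels' protocols. The deposited table holds FPKM values: the authors divided each gene's reads by its length, listed beside them, and by a library total. HISAT2 2.0.5, featureCounts 1.5.0-p3, DESeq2 1.20.0 and genome build mm9 are named in the submitters' processing notes, without roles. The table's coordinates were nevertheless those of GRCm38, since start and end matched GENCODE M21 for 98.3% of the 54409 gene identifiers found in both. FPKM times gene length gave whole reads for 100% of values within 0.05 reads. The test was limma 3.58.1 (R 4.3.3, trend and robust) on log2(FPKM + 1) of genes with a mean of at least 1 FPKM, two-sided, with no covariate and with Benjamini-Hochberg adjustment over 13029 genes at 0.05. On this scale a fold change understates that of low genes. This fit was tested on simulated data, with independent genes and changes larger than those of the 10 genes. How well it finds changes of their size was not tested. Limma voom on the rebuilt reads called 3 genes, as did the main test. A single value was compared by an exact permutation test, for which 4 against 4 cannot give a p under 0.0286. The table's 8 columns were matched to samples by name, and libraries of a group differed by a chi-square of at least 16.4 per gene, so each counted once. Names follow a rule: the 10 genes, Tfdp1, Tfdp2, Mrps5, the 2 smallest p of each other pathway list, the 2 most abundant markers of each cell type list and the 2 genes most like each member. Names outside it are Xist, Ddx3y, overlapping genes, genes under the filter, markers at 0 and Cdkn1c. The genes and lists were chosen with earlier results of these data known. Alternatives were another pseudocount, filter, scaling, quantile normalization, voom, library weights, a replicate block, sex as a covariate, left-out libraries and, chosen after seeing the data, female libraries alone.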

Additional observations from a re-analysis of the deposited data

Results flagged for a closer look

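Among 86 sets of 4 libraries checked, 5 held a library far from the other 3, and chance alone marks about 1 in 20 sets. Tfdp1 stood at 26.2 FPKM in cHET 4, against 22.8 to 23.4 FPKM in the other cHET libraries. Tfdp2 stood at 3.56 FPKM in cHET 3, against 2.74 to 2.77 FPKM in the others. The mean log2(FPKM + 1) of the repressing E2Fs was 3.81 in cHET 1, against 3.95 to 3.98 in the other cHET libraries. The distance of the atypical from the activating genes was -0.54 in cHET 1, against -0.77 to -0.75 in the others, so that this library had atypical E2Fs high relative to its activating ones. The activating share of the activating and repressing sum was 35.2% in control 1, against 38.3 to 39.0% in the other control libraries.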

How the results depend on the processing

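No member passed the limma test under any of 18 other settings, in which 1 to 6 of the 10 had an unadjusted p under 0.05, all higher. The 6 came with the replicate block, where 946 of all 13029 genes were higher and 801 lower at that p. These counts were 655 and 511 in the main test. With sex as a covariate, where 1 member was higher, they were 517 and 420. Leaving out 1 library at a time gave 2 to 3 genes and 0 members past the test. Over all genes the count was 11 with library weights (8 higher, 3 lower), 1 with a replicate block and 1 in female libraries alone, against 3 in the main test. Same-numbered libraries deviated together at correlations of 0.052 to 0.29, 5 of 8 libraries correlated best with their own number, and the labels tie no number to a litter, so the numbers were not taken as pairs. With the replicate block E2f8 had a limma adjusted p = 0.12. TPM scaling shifted the median of all genes to 0.10, and E2f4 (0.046), Rb1 (0.083) and Tfdp2 (0.061) changed sign to values below that shift. Without control 1 and control 2 E2f6 was -0.0044 and Rbl2 -0.015. Rb1 was 0.020 by voom and 0.065 in female libraries alone, where Tfdp2 was 0.043 and Mrps5 0.30. With 1 library left out, the log2 fold changes ran from -0.059 to 0.045 for Rb1, from -0.091 to 0.015 for Tfdp2 and from -0.30 to 0.041 for Mrps5. The gap between groups in atypical minus repressing genes was 0.53 at a pseudocount of 0.1. The causes of these changes were not tested, and with 4 hearts a group the 95% intervals of the members ran from -0.26 to 0.16 for E2f4 to 0.28 to 0.85 for E2f8 on the log2 scale.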
